A study of Mus musculus with 8 samples.

Results

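Retinoid metabolism and signalling was described in fat cells grown from the mouse fibroblast line 3T3-L1, through 9 of the 18194 genes measured by named probe sets. The genes were Aldh1a1, Aldh1a3, Aldh1a7, Rdh10, Dhrs3, Stra6, Rara, Rarb and Rarg, taken by symbol from the array annotation, and all 9 were measured. The set was chosen on a measured value, the higher Aldh1a1 signal in the Dex model, so every member's difference between Dex and CI, and that of Aldh1a1 between TNF and Dex, is given as a description with no test. The arrays were Affymetrix whole-genome mouse arrays, 8 in all, and the groups were models of insulin resistance: chronic insulin (CI, 2 arrays), tumour necrosis factor, an inflammatory cytokine (TNF, 3 arrays), and dexamethasone, a synthetic glucocorticoid (Dex, 3 arrays). All 8 samples had MnTBAP, a manganese porphyrin antioxidant, during the final 6 h. Doses and the length of each model treatment are not given in the sources used here. Untreated cells and samples without MnTBAP were not analysed here, so a value is higher or lower only relative to another model under the antioxidant. The labels do not say that the arrays of a model came from separate cultures, and a p-value here speaks only of the spread among these arrays, which may be technical.

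Cells take up vitamin A as retinol, for which Stra6 is a receptor, and oxidise it reversibly to retinaldehyde, then irreversibly to retinoic acid. Rdh10 carries out the first oxidation, Dhrs3 the reduction of retinaldehyde back to retinol, and Aldh1a1 and Aldh1a3 the later oxidation. Retinoic acid binds the nuclear receptors Rara, Rarb and Rarg, which act on DNA as partners of the RXR receptors, and CYP26 enzymes degrade it. In fat cells Aldh1a1 is known as the main retinaldehyde dehydrogenase, and both retinaldehyde and retinoic acid are known to affect adipocyte differentiation.

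The windows printed here show how close Aldh1a1, the gene of the 9 with the widest range between models, lies in sequence to its neighbour, and where a receptor gene carries the letters of a retinoic acid response element. Each holds 250 bases before and 50 after an annotated transcription start, from RefSeq on GRCm38.p6. They are Aldh1a1 at its upstream start, chr19:20492333-20492632 on the plus strand, Aldh1a1 at its downstream start, chr19:20601718-20602017 on the plus strand, Aldh1a7 at chr19:20727507-20727806 on the minus strand, and Rarb at chr14:16575427-16575726 on the minus strand. Capitals mark the 65 bases, positions 157 to 221 of the window, that the downstream Aldh1a1 window and the Aldh1a7 window share without a difference, and in Rarb a pair of half-sites spaced by 5 bases.
Aldh1a1, upstream start: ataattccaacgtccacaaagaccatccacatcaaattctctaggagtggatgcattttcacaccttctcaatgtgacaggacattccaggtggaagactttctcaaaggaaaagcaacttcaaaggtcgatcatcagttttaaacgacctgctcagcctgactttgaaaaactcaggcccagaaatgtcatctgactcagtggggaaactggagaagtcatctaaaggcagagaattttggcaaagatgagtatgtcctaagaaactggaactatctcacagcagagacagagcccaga
Aldh1a1, downstream start: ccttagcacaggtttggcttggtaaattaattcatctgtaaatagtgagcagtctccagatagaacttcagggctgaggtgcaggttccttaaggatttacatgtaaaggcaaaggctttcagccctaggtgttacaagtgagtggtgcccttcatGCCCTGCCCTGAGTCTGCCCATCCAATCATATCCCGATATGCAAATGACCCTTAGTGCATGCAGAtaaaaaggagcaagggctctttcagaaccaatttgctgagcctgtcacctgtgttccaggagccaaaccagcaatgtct
Aldh1a7: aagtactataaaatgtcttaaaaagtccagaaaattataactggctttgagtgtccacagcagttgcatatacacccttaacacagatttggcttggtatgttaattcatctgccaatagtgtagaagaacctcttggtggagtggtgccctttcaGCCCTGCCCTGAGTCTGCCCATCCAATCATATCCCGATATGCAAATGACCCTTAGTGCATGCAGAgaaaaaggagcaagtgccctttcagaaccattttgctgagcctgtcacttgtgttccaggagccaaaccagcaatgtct
Rarb: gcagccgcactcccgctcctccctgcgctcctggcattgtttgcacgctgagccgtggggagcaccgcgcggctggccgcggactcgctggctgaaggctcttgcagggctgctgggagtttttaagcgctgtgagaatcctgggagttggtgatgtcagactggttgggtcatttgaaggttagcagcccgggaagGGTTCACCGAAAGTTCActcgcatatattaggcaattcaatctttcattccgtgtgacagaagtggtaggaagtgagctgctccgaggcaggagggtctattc
From the shared stretch to the end of the window, 139 of 144 bases were the same in Aldh1a7 and at the downstream Aldh1a1 start (96.5%), with no gaps. Over the whole window, aligned with gaps, 224 of 300 were (74.7%). Aligned in that way, the upstream Aldh1a1 window matched Aldh1a7 at 171 of 300 bases (57.0%) and the downstream Aldh1a1 window at 165 (55.0%). Aldh1a7 is the next protein-coding gene after Aldh1a1 on chromosome 19, on the opposite strand. Windows were held for 7 of the 9 genes, 17 windows in all.

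Patterns of letters were searched on both strands. The half-site of the glucocorticoid response element, AGAACA, was in 3 of the 17 windows, 1 of Dhrs3 and 2 of Stra6, against 19.0% of all 32851 windows. The full palindrome, with AGAACA and its reverse complement spaced by 3 bases, was in 0 of the 17 and in 0.00913% of all windows. A direct repeat spaced by 5 bases, each repeat being AGGTCA or one of its variants (AGTTCA, or else GGGTCA, or else GGTTCA), the arrangement known for binding of retinoic acid receptors, was in 1 of the 17, that of Rarb, and in 0.0974% of all windows. In Rarb it read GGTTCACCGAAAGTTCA and began at position -53 relative to the start. The palindrome contains the half-site, so a window with the first holds the second. A match describes letters only.

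Values are log2 of the deposited intensity unless a difference is named, and a difference carries its standard error (SE), from the fit over all genes. Calling a gene took both an adjusted p below 0.05 and a log2 difference beyond 0.5 in size, which is 1.41-fold. Median array intensity lay between 124.7 and 131.0. Known targets of the treatments differed between models. Fkbp5 and Tsc22d3, glucocorticoid target genes, averaged 13.09 and 12.01 in Dex, against 10.12 and 9.88 in CI and 10.44 and 9.74 in TNF, and Saa3, an acute-phase gene, averaged 14.11 in TNF but 8.93 in CI and 8.92 in Dex. One label calls the cells preadipocytes, and the adipocyte genes Adipoq, Fabp4 and Lpl averaged between 14.18 and 14.44 in every model. The other measured adipocyte markers, Lep, Cidec, Slc2a4 and Pparg, were called lower in TNF than in CI. Lep, Slc2a4 and Pparg were also called lower in Dex than in CI. Signal over background could not be read from the deposited values, which hold no detection call, and levels are not compared between genes. Arrays of bulk RNA cannot tell fewer cells of a type from less RNA per cell.

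Aldh1a1 and its neighbour Aldh1a7 differed from CI in opposite directions, Aldh1a1 above it and Aldh1a7 below it in both TNF and Dex. Aldh1a1, which oxidises retinaldehyde to retinoic acid, measured 6.42 and 6.25 in the CI arrays, 7.70, 7.37 and 7.61 in the TNF arrays and 10.41, 10.28 and 10.46 in the Dex arrays. Every TNF array lay above both CI arrays and every Dex array above all others. TNF was higher than CI by 1.22 ± 0.11 (SE), 2.34-fold, with an adjusted p of 2.16e-05 in limma's test. This test reused the CI arrays of the Dex and CI difference behind the choice of the set, so it is not independent of that choice. Dex lay above CI by 4.05 ± 0.11, which is 16.6-fold, and TNF below Dex by a log2 difference of -2.83 ± 0.095, neither of them tested because the gene was chosen for this pattern. Only 1 probe set names Aldh1a1, so these values have no second probe set as a check. The CI values were low but above the TrpnX control probe sets, which reached 5.08 at most. With no detection call the background of the Aldh1a1 probe set itself is not known, which limits the fold differences from CI.

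Aldh1a7, a close paralogue of Aldh1a1, measured 13.00 and 12.92 in the CI arrays, 12.04, 12.15 and 12.17 in the TNF arrays and 12.53, 12.27 and 12.35 in the Dex arrays. The CI arrays were the highest and the TNF arrays the lowest, with no overlap between any pair of models. TNF was lower than CI by a log2 difference of -0.84 ± 0.090 (adjusted p = 8.48e-05, limma), 0.56-fold. The difference between TNF and Dex, -0.26 ± 0.080 with an adjusted p of 0.0374 in limma's test, was under the fold threshold and was not called. Dex lay below CI with a difference of -0.57 ± 0.090. Cross-hybridisation between the Aldh1a1 and Aldh1a7 probes was not tested.

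Aldh1a3, another retinaldehyde dehydrogenase, measured 6.68 and 6.42 in the CI arrays, 6.35, 6.58 and 6.50 in the TNF arrays and 6.48, 6.56 and 6.48 in the Dex arrays. The 3 models overlapped, and neither TNF minus CI (-0.08 ± 0.096, adjusted p = 0.598 in limma) nor TNF minus Dex (-0.04 ± 0.086, adjusted p = 0.826 in limma) was called. Dex minus CI was -0.04 ± 0.096, and its sign rested on single CI arrays, at 0.085 when CI replicate 1 was left out and -0.17 when CI replicate 2 was. The other 2 Aldh1a3 probe sets spanned 5.74 to 5.91 and 3.31 to 3.55 over the 8 arrays.

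**Figure D1:**
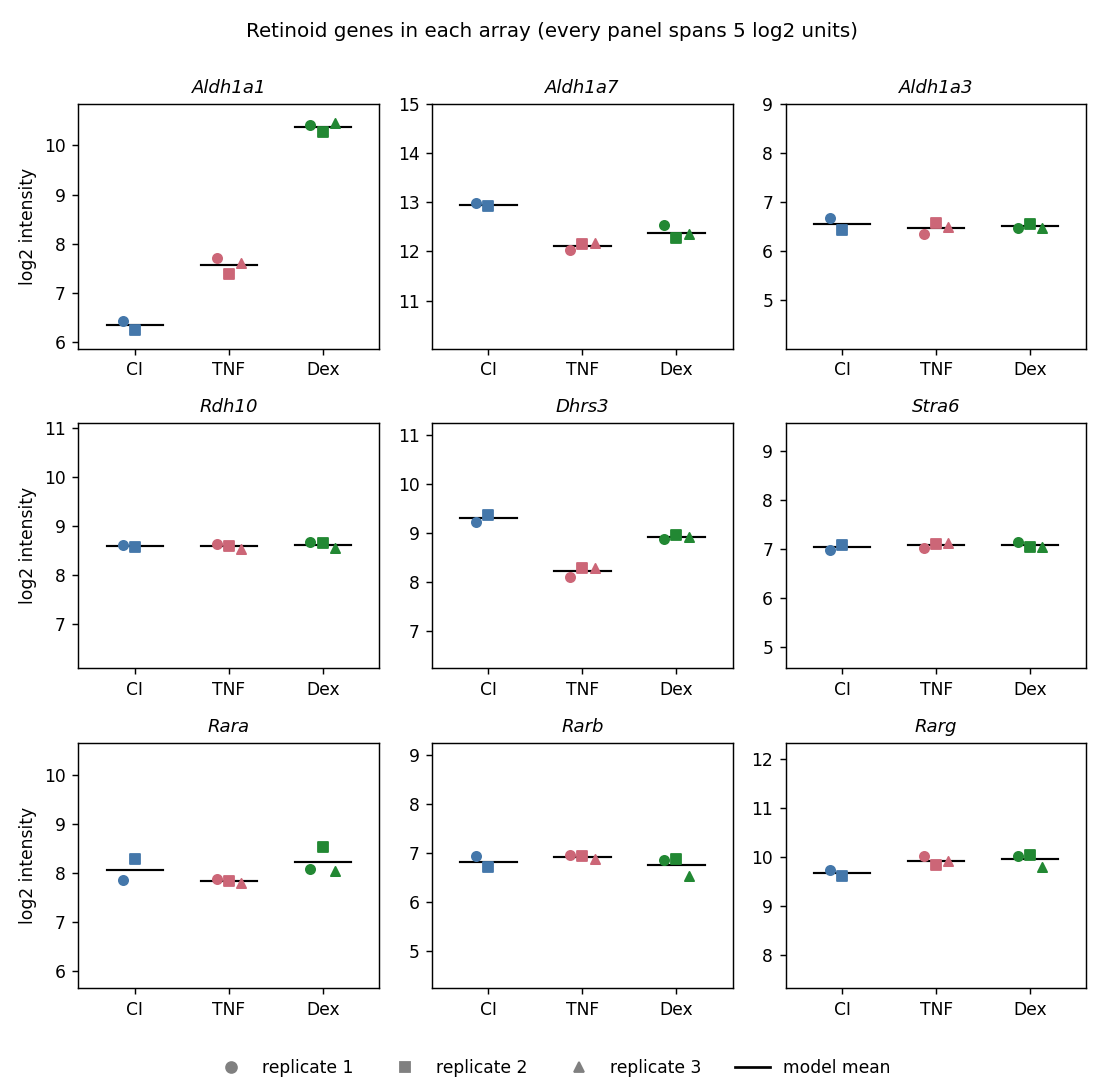
Log2 intensity of the 9 genes in each of the 8 arrays, by model, with a line at the model mean, and every panel spanning 5 log2 units. Aldh1a1 runs from 6.25 to 10.46 with the 3 models apart, Aldh1a7 and Dhrs3 are lowest in TNF, and none of the other 6 genes was called in TNF minus CI or TNF minus Dex.

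Of the members that interconvert retinol and retinaldehyde, Dhrs3 was lower in TNF than in CI and Dex, and Rdh10 was not called. Dhrs3, which reduces retinaldehyde to retinol and is known as a gene induced by retinoic acid, measured 9.24 and 9.38 in the CI arrays, 8.11, 8.29 and 8.29 in the TNF arrays and 8.88, 8.96 and 8.93 in the Dex arrays. The models did not overlap, with TNF lowest and CI highest. TNF was below CI with a difference of -1.08 ± 0.084 (adjusted p = 9.73e-06, limma), 0.473-fold, and below Dex with a difference of -0.69 ± 0.075 (adjusted p = 5.59e-05, limma), 0.618-fold. Dex lay below CI with a difference of -0.39 ± 0.084.

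Rdh10, which oxidises retinol to retinaldehyde, measured 8.59 and 8.57 in the CI arrays, 8.63, 8.58 and 8.52 in the TNF arrays and 8.66, 8.64 and 8.54 in the Dex arrays. The models overlapped. TNF minus CI was -0.00 ± 0.074 (adjusted p = 0.968, limma) and TNF minus Dex -0.03 ± 0.066 (adjusted p = 0.785, limma). Dex minus CI was 0.03 ± 0.074, and 0.21 on the second Rdh10 probe set, which measured 7.90 and 7.92 in CI and 8.12, 8.05 and 8.21 in Dex.

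Stra6, the cell-surface receptor for retinol carried by Rbp4, measured 6.99 and 7.08 in the CI arrays, 7.02, 7.10 and 7.12 in the TNF arrays and 7.15, 7.05 and 7.04 in the Dex arrays. The models overlapped, TNF minus CI was 0.04 ± 0.074 (adjusted p = 0.704, limma), and TNF minus Dex was 0.00 ± 0.066 (adjusted p = 0.993, limma).

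None of the 3 retinoic acid receptors was called in TNF minus CI or TNF minus Dex. Rara measured 7.86 and 8.28 in the CI arrays, 7.88, 7.84 and 7.79 in the TNF arrays and 8.09, 8.52 and 8.05 in the Dex arrays. The TNF arrays lay below the Dex arrays without overlap, while the CI arrays overlapped both. TNF minus Dex was -0.38 ± 0.13 (adjusted p = 0.0618, limma) and TNF minus CI -0.23 ± 0.15 (adjusted p = 0.289, limma). Dex minus CI, 0.15 ± 0.15, became -0.060 when CI replicate 1 was left out and 0.36 when CI replicate 2 was.

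Rarb, itself known as a target of retinoic acid, measured 6.92 and 6.71 in the CI arrays, 6.95, 6.93 and 6.87 in the TNF arrays and 6.85, 6.87 and 6.53 in the Dex arrays. The lowest value was Dex replicate 3, and the models overlapped. TNF minus CI was 0.10 ± 0.11 (adjusted p = 0.555, limma), TNF minus Dex 0.17 ± 0.096 (adjusted p = 0.273, limma) and Dex minus CI -0.07 ± 0.11. Its window is the one printed above with the direct repeat.

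Rarg measured 9.74 and 9.62 in the CI arrays, 10.01, 9.84 and 9.92 in the TNF arrays and 10.01, 10.03 and 9.80 in the Dex arrays. Both CI arrays were below all 6 others. TNF minus CI was 0.24 ± 0.092 with an adjusted p of 0.0832 in limma's test, TNF minus Dex was -0.02 ± 0.083 (adjusted p = 0.881, limma), and Dex minus CI was 0.27 ± 0.092. The second Rarg probe set gave 0.32 for TNF minus CI and 0.55 for Dex minus CI.

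Over the set, TNF minus CI called 3 of 9 genes, Aldh1a1 higher and Aldh1a7 and Dhrs3 lower, where 8.22% of all genes were called, 3.00% higher and 5.23% lower. The Aldh1a1 call shares its CI arrays with the choice of the set, so this count is not independent of that choice. TNF minus Dex called 1 of the 8 genes tested, Dhrs3, where 7.30% of all genes were called, 4.14% higher and 3.16% lower. In Dex minus CI, the comparison used to choose the set, 2 of 9 genes lay beyond 0.5 in size, Aldh1a1 above and Aldh1a7 below, and nothing is read from that count. Over all genes that comparison called 9.0%, 3.33% higher and 5.67% lower. The median log2 difference of the set was -0.005, -0.034 and 0.029 in these comparisons, against 0.027, 0.007 and 0.020 over all genes. The comparisons share arrays, and each is given by its own values.

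**Figure D2:**
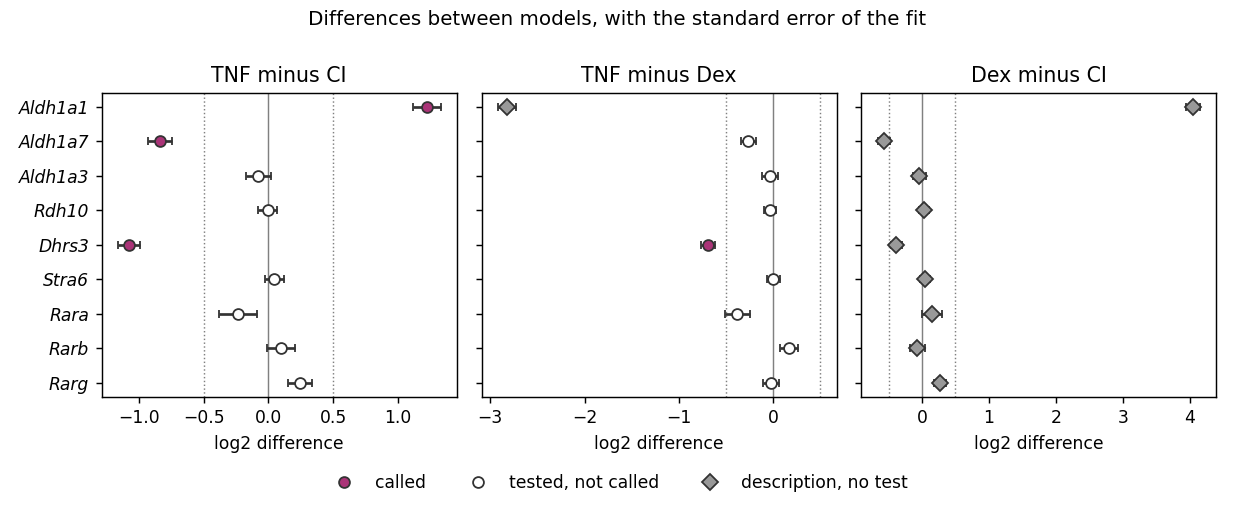
Log2 difference of each of the 9 genes between models, with bars for the SE of the fit and dotted lines at the fold threshold of 0.5; filled circles were called, open circles were tested and not called, and diamonds are descriptions without a test. Aldh1a1 and Dhrs3 lie farthest from 0 in TNF minus CI, at 1.22 and -1.08, and Aldh1a1 at 4.05 in Dex minus CI.

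A list of 58 other genes covered retinoid handling, its receptors and wider factors such as Rora, Nrip1, Zfp423 and Ncoa1. Of these 52 were measured, and 6 were not analysed here. In TNF minus CI, 0 were higher and 8 lower, and the 8 included the wider factors Nrip1 (-1.13), Rora (-0.98) and Zfp423 (-0.52). In TNF minus Dex, 2 were higher and 7 lower. In Dex minus CI, 4 were higher and 5 lower. These were 15.4%, 17.3% and 17.3% of the list, beside 8.22%, 7.30% and 9.0% of all genes, and the list medians were -0.001, -0.055 and 0.059, beside 0.027, 0.007 and 0.020. This list was drawn up with earlier results of these data known, as were those of retinoic acid targets and aldehyde dehydrogenases below. Their shares are descriptions only.

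Adh1, an alcohol dehydrogenase that can oxidise retinol, measured 8.87 and 8.74 in the CI arrays, 8.64, 8.88 and 8.70 in the TNF arrays and 10.95, 10.86 and 10.73 in the Dex arrays. Its Dex arrays were above all others, by 2.04 ± 0.096 over CI (adjusted p = 1.34e-07, limma), and TNF lay below Dex with a difference of -2.11 ± 0.086 (adjusted p = 2.21e-08, limma). Adh5, the class III alcohol dehydrogenase, exceeded CI in Dex by 0.56 ± 0.084 on its brighter probe set and by 0.23, not called, on the other.

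Rdh11, a retinal reductase, measured 10.27 and 10.17 in the CI arrays, 9.53, 9.53 and 9.48 in the TNF arrays and 8.93, 8.37 and 8.99 in the Dex arrays. The models lay in that order, CI highest, without overlap. Dex was below CI with a difference of -1.46 ± 0.15, TNF was above Dex by 0.75 and below CI with a difference of -0.71. Leaving out CI replicate 1 ended the TNF minus CI call (adjusted p = 0.0522, limma), and on its other probe set TNF minus Dex was 0.47, under the fold threshold. Akr1b10, an aldo-keto reductase that acts on retinaldehyde, was higher in TNF than in Dex by 0.73 and lower in Dex than in CI with a difference of -0.70, and on the dimmest of its 3 probe sets these were 0.13 and -0.062, neither called. Dhrs7 was lower in Dex than in CI with a difference of -0.68 on its brightest probe set and 0.37 on its dimmest, so its direction depended on the probe set.

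Aox1, an aldehyde oxidase, was lower in TNF, at 8.13, 8.26 and 8.47, than in CI, at 8.96 and 9.12, and Dex, at 9.04, 9.18 and 9.31. The differences were -0.75 ± 0.11 from CI and -0.89 from Dex. Retsat, which saturates retinol, measured 12.24 and 12.16 in the CI arrays, 11.86, 11.90 and 11.88 in the TNF arrays and 12.56, 12.63 and 12.53 in the Dex arrays, and TNF was below Dex with a difference of -0.70 (adjusted p = 1.50e-05, limma). On its dimmer probe set TNF minus CI was called, at -0.66 (adjusted p = 0.000175, limma), against -0.32 on the brighter. Retsat in Dex minus CI was 0.38 on the brighter probe set and reached -0.05 among the alternatives.

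Cyp26b1, which degrades retinoic acid, measured 8.29 and 8.27 in the CI arrays, 8.78, 8.56 and 8.53 in the TNF arrays and 10.17, 9.72 and 9.09 in the Dex arrays. All Dex arrays were above the others, but they spread over more than 1 log2 unit. Dex was above CI by 1.38 ± 0.23 (adjusted p = 0.00112, limma) and TNF below Dex with a difference of -1.04 ± 0.20 (adjusted p = 0.00361, limma). The lowest of the Dex values belonged to Dex replicate 3, in which the beta-actin 3′ minus 5′ difference, a measure of RNA and labelling quality, was 0.745 against 0.491 and 0.494 in the other 2. The same measure on pyruvate carboxylase did not set replicate 3 apart, at 1.717 against 1.663 and 1.929 in the other 2. With the beta-actin difference as a covariate, chosen after seeing the data, TNF minus Dex was -0.56 and no longer called (adjusted p = 0.0938, limma), and TNF minus CI was 0.76 and called (adjusted p = 0.0248, limma). Cyp26a1, the related enzyme, spanned 7.73 to 8.06 over the 8 arrays and was not called in any comparison.

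Among the RXR receptors, Rxra was higher in Dex and Rxrg was lower in both TNF and Dex than in CI. Rxra measured 11.13 and 11.22 in the CI arrays, 11.20, 11.14 and 11.23 in the TNF arrays and 11.96, 12.02 and 11.85 in the Dex arrays, a difference of 0.77 ± 0.078 between Dex and CI (adjusted p = 3.31e-05, limma). On the dimmest of its 3 probe sets that difference was 0.08 and not called. Rxrg measured 9.14 and 9.29 in the CI arrays, 8.40, 8.36 and 8.35 in the TNF arrays and 7.97, 8.23 and 8.12 in the Dex arrays, which gave -0.85 ± 0.088 for TNF minus CI and -1.11 ± 0.088 for Dex minus CI. Rxrb, at 10.41, 10.31 and 10.38 in Dex and 9.95 and 10.08 in CI, stayed under the fold threshold.

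Rora, an orphan receptor whose name is for its likeness to the retinoic acid receptors, was lower in TNF, at 8.65, 8.54 and 8.66, than in CI, at 9.47 and 9.72, and Dex, at 9.65, 9.66 and 9.55. The differences were -0.98 ± 0.090 from CI and -1.01 from Dex on the brightest of its 9 probe sets, and -0.16 and -0.15, not called, on the dimmest. Nrip1, a corepressor that binds ligand-bound nuclear receptors, was lower in TNF than in CI with a difference of -1.13 ± 0.21. On its dimmest probe set the sign turned (0.27, adjusted p = 0.0723 in limma).

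Binding proteins and the remaining named genes met the calling rule in none of the 3 comparisons on their brightest probe sets. Rbp4, the plasma carrier of retinol, spanned 5.74 to 5.87 and Rbp7 5.48 to 5.84. Crabp1 and Crabp2, cytosolic carriers of retinoic acid, spanned 4.11 to 4.32 and 5.76 to 5.95. Fabp5, which can deliver retinoic acid to Ppard, spanned 13.61 to 13.95, and on its other probe set Dex minus CI did meet the rule (-0.75, adjusted p = 3.10e-05 in limma). Ppard spanned 10.04 to 10.49. Lrat, which esterifies retinol, spanned 4.30 to 4.54, and Aldh1a2, the remaining retinaldehyde dehydrogenase of its family, 5.57 to 6.18.

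**Figure D3:**
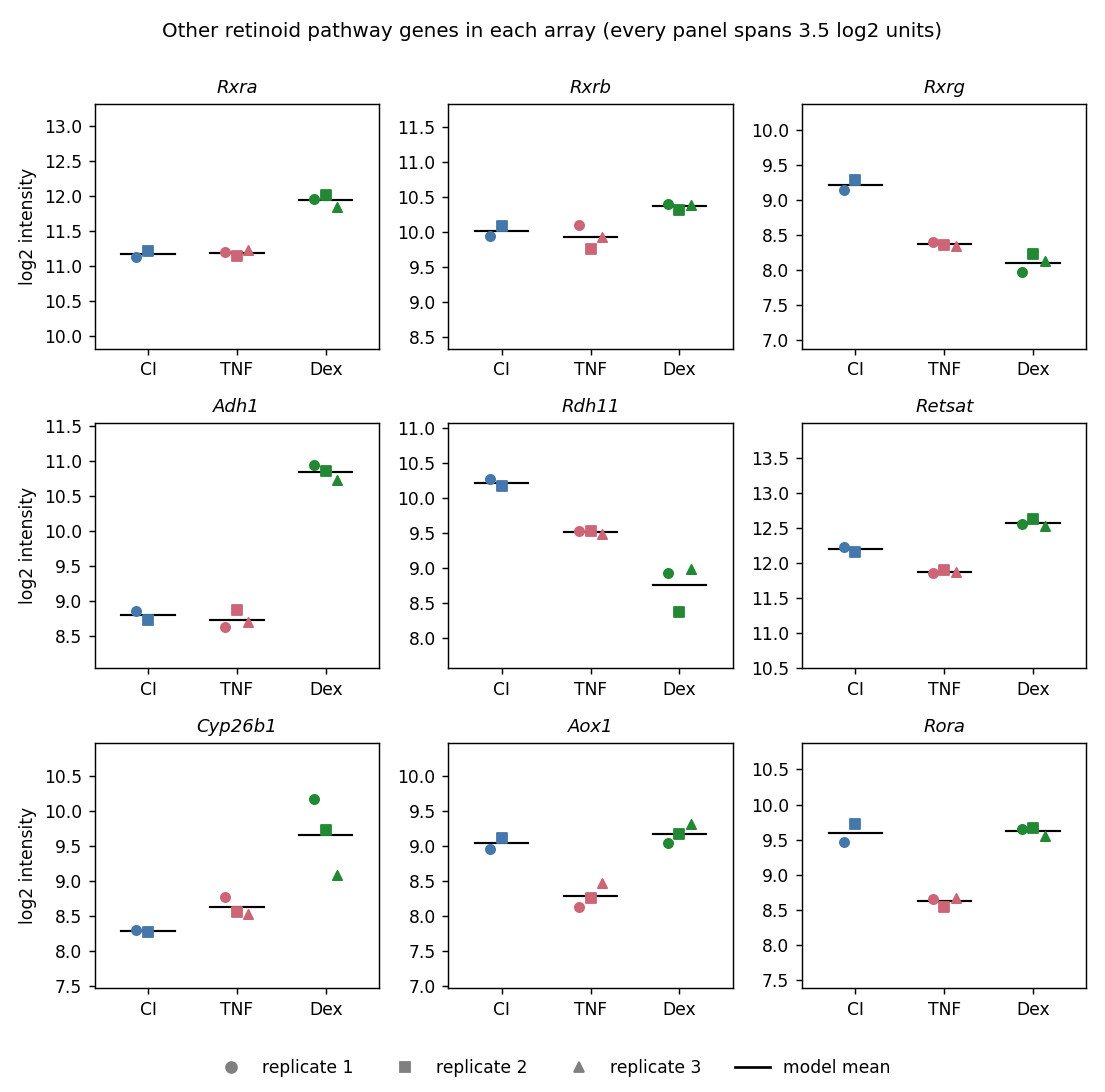
Log2 intensity of 9 genes from the list of other retinoid pathway genes and wider factors in each of the 8 arrays, by model, with a line at the model mean, and every panel spanning 3.5 log2 units. Adh1, Rxra and Cyp26b1 are highest in Dex, Aox1 and Rora are lowest in TNF, and Rdh11 and Rxrg are highest in CI.

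Genes known as targets of retinoic acid moved in both directions. Of 32 listed, 29 were measured, with 2 higher and 4 lower in TNF minus CI, 4 higher and 3 lower in TNF minus Dex, and 2 higher and 4 lower in Dex minus CI. These were 20.7%, 24.1% and 20.7% of the list, beside 8.22%, 7.30% and 9.0% of all genes, and the medians were 0.041, 0.124 and -0.033, beside the same medians over all genes. This list shares genes such as Cyp26b1 and Nrip1 with the one above, and its members are not targets of retinoic acid alone. It too was drawn up with earlier results of these data known, so no retinoic acid response is read from its shares.

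Pdk4, a kinase that inhibits pyruvate dehydrogenase and is also a glucocorticoid target, measured 8.44 and 8.62 in the CI arrays, 8.62, 8.53 and 8.56 in the TNF arrays and 11.64, 11.65 and 11.09 in the Dex arrays. Dex was above CI by 2.93 (adjusted p = 1.80e-07, limma), and TNF overlapped CI. Tgm2, tissue transglutaminase, ran the other way, at 9.63 and 9.69 in the CI arrays, 9.06, 8.99 and 9.02 in the TNF arrays and 8.16, 8.26 and 7.98 in the Dex arrays. It was lower than in CI with a difference of -0.64 in TNF and -1.53 in Dex, and none of the 3 Tgm2 calls passed on the dimmest of its 6 probe sets.

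Hoxa4, a homeobox transcription factor, was lower than in CI with a difference of -1.08 in TNF and -1.38 in Dex, and the first was -0.47, under the fold threshold, on its other probe set. Rarres2, which encodes the adipokine chemerin, measured 14.15, 14.12 and 14.14 in TNF and 13.36, 13.23 and 13.43 in Dex, a difference of 0.79 (adjusted p = 1.08e-05, limma) that was 0.23 and not called on its dimmest probe set. Tnfaip2 in TNF exceeded CI by 0.82, and by 0.09, not called, on its dimmest probe set. Btg2, an antiproliferative gene, was lower in TNF than in CI with a difference of -0.67, which was no longer called when CI replicate 2 was left out (adjusted p = 0.0555, limma), and lower than in Dex with a difference of -0.67.

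Rai14 was higher in TNF than in Dex by 0.94 and than in CI by 0.62. The TNF minus CI call was lost without CI replicate 1 or 2 (adjusted p = 0.0612 and 0.0783 in limma) and fell under the fold threshold without TNF replicate 1 (0.48), and on the dimmest of its 4 probe sets neither difference was called (0.26 from CI and 0.15 from Dex). Dlk1, which is also a preadipocyte marker, was higher in TNF than in Dex by 0.83, and Dex minus CI was -0.70. On its other probe set TNF minus Dex was -0.16 and Dex minus CI -0.13, neither called. Hic1 was lower in Dex than in CI with a difference of -0.55, and with a difference of -0.46, under the fold threshold, without CI replicate 2.

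All 17 other aldehyde dehydrogenases listed were measured. The list called 1 lower in TNF minus CI, 5 in TNF minus Dex, all lower, and 3 in Dex minus CI, all higher, which are 5.88%, 29.4% and 17.6% of the list beside 8.22%, 7.30% and 9.0% of all genes. Its medians were -0.091, -0.060 and 0.021. The called genes are mitochondrial enzymes of amino acid and aldehyde breakdown, apart from Aldh3b2. Aldh6a1, of valine breakdown, measured 12.32 and 12.29 in the CI arrays, 12.09, 12.05 and 12.17 in the TNF arrays and 13.03, 13.02 and 12.96 in the Dex arrays, so that Dex was above CI by 0.70 and TNF below Dex with a difference of -0.90 (adjusted p = 2.33e-06, limma). Aldh4a1, of proline breakdown, and Aldh5a1, of GABA breakdown, were above CI in Dex by 0.60 and 0.75 and below Dex in TNF with a difference of -0.87 and -0.53.

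Aldh4a1 in Dex minus CI fell to 0.46, under the fold threshold, without CI replicate 1, and Aldh5a1 in TNF minus Dex to -0.47 without TNF replicate 2. Aldh3b2 was lower in TNF than in Dex with a difference of -0.71. Aldh2, the mitochondrial enzyme of acetaldehyde breakdown, was lower in TNF than in Dex with a difference of -0.62. That difference was -0.33, under the fold threshold, on the dimmest of its 5 probe sets. Aldh2 was also the single call of TNF minus CI, at -0.52, and the list had 0 calls in that comparison without CI replicate 2 or without TNF replicate 1. Aldh2 in TNF minus CI was also under the fold threshold after quantile normalisation (-0.47), with the replicate number as a block (-0.49), as the mean over its probe sets (-0.36) and on the dimmest of them (-0.20, adjusted p = 0.177 in limma).

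**Figure D4:**
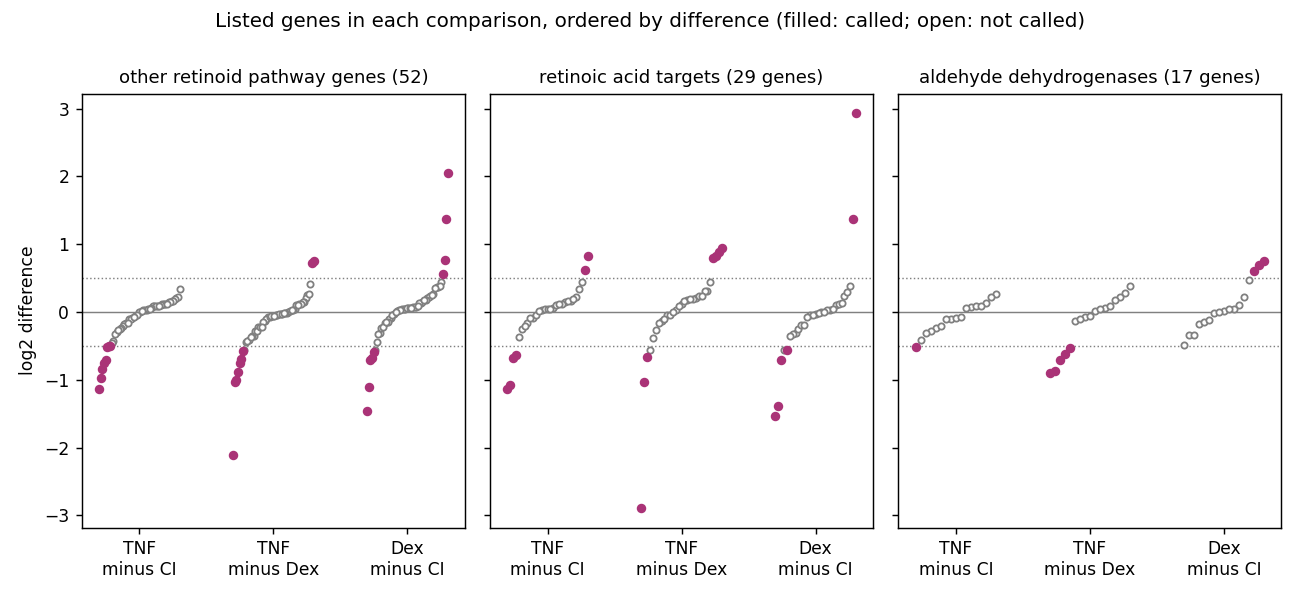
Log2 difference of every measured gene of 3 lists, other retinoid pathway genes (52), retinoic acid targets (29) and aldehyde dehydrogenases (17), ordered by size within each comparison; filled points were called, and dotted lines mark the fold threshold of 0.5. Called pathway genes in TNF minus CI all lie below 0, whereas Adh1 reaches 2.04 and Pdk4 2.93 in Dex minus CI.

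The genes whose profile over the 8 arrays was most like that of Aldh1a1, by the smallest root mean square difference after each gene was centred on its own mean, were Ccl6 (0.189), Ptgds (0.388), Cabp4 (0.432), Fkbp5 (0.459) and Pdk4 (0.549). Ccl6 is a chemokine and Ptgds a prostaglandin D synthase. Their Pearson's r with Aldh1a1 over the 8 arrays was 0.994, 0.973, 0.978, 0.977 and 0.951, a description over arrays that fall into 3 models. Ccl6 measured 9.24 and 9.18 in the CI arrays, 10.03, 10.27 and 10.17 in the TNF arrays and 13.22, 13.12 and 13.13 in the Dex arrays, with the same order of models as Aldh1a1. Fkbp5 had that order too, but TNF lay above CI by 0.32, against 1.22 for Aldh1a1.

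**Figure D5:**
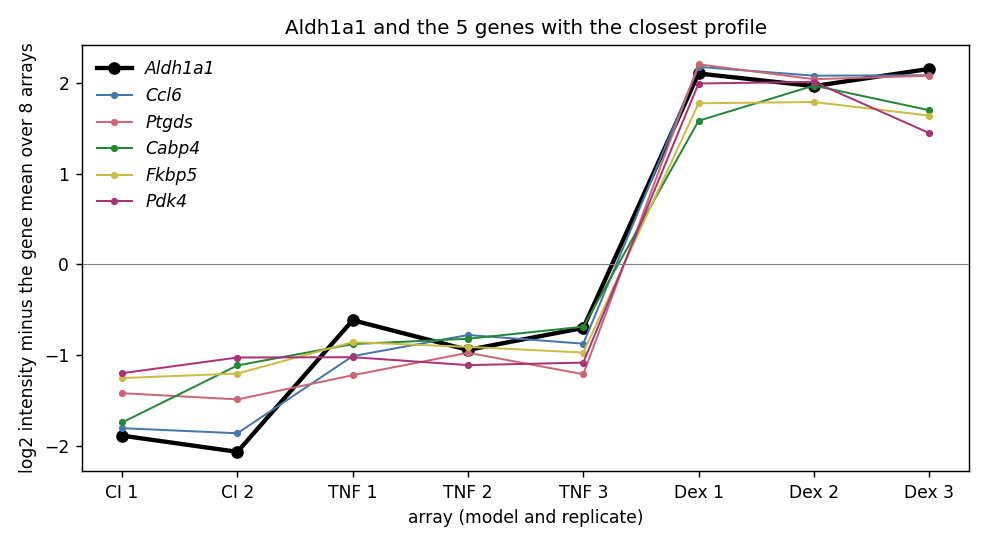
Log2 intensity minus the gene's mean over the 8 arrays, for Aldh1a1 and the 5 genes with the closest profile, in each array. All 6 genes are highest in the Dex arrays, and Aldh1a1 and Ccl6 show the widest step from CI to TNF, 1.22 and 0.95.

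Markers of other cells and of RNA quality moved with some of these differences. The summed intensity of 7 preadipocyte and fibroblast markers was 32845 to 35038 in CI, 36191 to 40977 in TNF and 16199 to 19923 in Dex, and that of 7 adipocyte markers was 88148 to 88157, 75463 to 77061 and 82848 to 86387. Such sums weigh the brightest probe sets most. Of the preadipocyte and fibroblast markers, only Fn1 was called in TNF minus CI, at 1.30, while Col1a1 was -0.15 and Col3a1 -0.05. The list median there was 0.124. In Dex minus CI, 3 of these 7 were called, all lower. Of the adipocyte markers, 4 of 7 were lower in TNF than in CI and 3 of 7 lower in Dex than in CI. Lep lost both calls without CI replicate 1 (-0.48 and -0.43), and Pparg in TNF minus CI was under the fold threshold in 6 alternatives, between -0.49 and -0.47, among them the fits that left out CI replicate 1, TNF replicate 2 and TNF replicate 3 in turn. Of 6 macrophage markers, Cd14 was called higher in TNF and in Dex than in CI, while Ptprc, the leukocyte marker, spanned 4.46 to 4.77 over all arrays, and the summed intensity was 885 to 910 in CI, 1377 to 1623 in TNF and 1178 to 1262 in Dex. The part of these markers in the retinoid differences was not tested. The beta-actin 3′ minus 5′ difference averaged 0.599 ± 0.089 in CI, 0.760 ± 0.061 in TNF and 0.577 ± 0.146 in Dex (SD, n = 2, 3 and 3). With it as a covariate, TNF minus CI was 1.11 for Aldh1a1, -0.83 for Aldh1a7 and -1.07 for Dhrs3, and TNF minus Dex was -0.68 for Dhrs3, all called. Among other genes named above, besides Cyp26b1, the covariate ended the TNF minus Dex calls of Rdh11 (adjusted p = 0.0623, limma), Btg2 (adjusted p = 0.0564, limma) and Aldh2 (-0.499). It also ended the TNF minus CI calls of Rai14 (adjusted p = 0.0763, limma), Aldh2 (-0.41) and Pparg (-0.48).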

How the data were processed

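RNA from 8 samples of 3T3-L1 adipocytes was hybridised to Affymetrix Mouse Genome arrays of 45101 probe sets. The authors deposited linear intensities; the study's methods name RMA, and the sources used here do not state whether these intensities are RMA values with the logarithm removed. Log2 values had been assumed, so log2 was taken with no pseudocount. Precision is limited by the number of arrays. Names came from the platform annotation held by GEO, where 34958 probe sets had 1 symbol, 932 several and 9211 none. A gene was its single-symbol probe set with the highest mean, which gave 18194 genes, 1 of them represented by a control probe set.

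The 3 models were fitted together with limma 3.58.1 (R 4.3.3; lmFit, eBayes, two-sided moderated test) with Benjamini-Hochberg adjustment over all genes. Calls needed an adjusted p below 0.05 and a log2 difference beyond 0.5 in size. The named genes were the 9 of the set, up to 4 called genes per list, comparison and direction, fixed genes given whatever their values, and the 5 closest to Aldh1a1. Further called or fixed genes were named where a sentence needed them. The members, lists and rules were chosen with earlier results of these data known. Alternatives were other scalings, filters, probe set rules, thresholds and fits, the replicate number as a block, and leaving out each array. Promoter windows came from RefSeq on GRCm38.p6 and were searched with Python 3.11.15.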

Additional observations from a re-analysis of the deposited data

How the results depend on the processing

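Every member kept its direction and its call, or lack of one, in TNF minus CI and in TNF minus Dex under the other scalings, probe set rules, fits and left-out arrays. Exceptions are what follows and the signs of differences that were not called. The adjusted p alone crossed 0.05 in some alternatives for Aldh1a7 and Rara in TNF minus Dex and for Rarg in TNF minus CI. These differences stayed under the fold threshold of 0.5. TNF minus CI called 3 of 9 genes with each array left out in turn, and TNF minus Dex 1 of 8. With a log2 difference over 1 required, TNF minus CI called 2 and TNF minus Dex 0, and with no minimum difference 3 and 2. In Dex minus CI, a description for these genes, the count of 2 was 1 with a difference over 1 required, and 3 with no minimum or with the probe set of lowest mean. Over the left-out arrays Aldh1a1 lay between 1.13 and 1.32 in TNF minus CI, between -2.90 and -2.73 in TNF minus Dex and between 3.96 and 4.14 in Dex minus CI. Its TNF minus Dex value moved to -2.96 with the beta-actin covariate, which was chosen after seeing the data. Over all genes, TNF minus CI called 1496, against 2992 with every probe set as a feature, 258 with a log2 difference over 1 and 4181 with no minimum. TNF minus Dex called 1328, against 2583, 342 and 3801, and Dex minus CI 1637, against 3305, 423 and 3926. With the probe set of lowest mean in place of the highest, signs turned for Fkbp5 in TNF minus Dex (0.046) and Dex minus CI (-0.18), Tsc22d3 in TNF minus Dex (0.061), Nrip1 in TNF minus CI (0.27), Dhrs7 in Dex minus CI (0.37) and Dlk1 in TNF minus Dex (-0.16). The cause was not tested. The pathway list had 5 calls in TNF minus CI, against 8, under quantile normalisation and without CI replicate 2. Whether replicate numbers pair the arrays is not known. The deviations of same-numbered arrays correlated at -0.095 to 0.334, and those of other arrays at -0.384 to 0.284. In groups of 2 or 3 arrays the deviations depend on each other, so these correlations cannot decide it. With the replicate number as a block, 1534, 1339 and 1730 genes were called in TNF minus CI, TNF minus Dex and Dex minus CI, and of the set 3 in TNF minus CI and 1 in TNF minus Dex. Low intensities without a detection call limit what can be said of Aldh1a2, Aldh1a3, Rarb, Stra6, Rbp4, Rbp7, Crabp1, Crabp2 and Lrat. The same limit holds for Aldh1a1 in CI, at 6.42 and 6.25, the base of its fold differences from CI. Those Aldh1a1 values lay above the TrpnX controls, whereas Crabp1 and Lrat lay within the range of these controls.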
